A study of Medicago truncatula with 14 samples.

Results

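The loci of CCaMK, IPD3, NSP1, NSP2 and DELLA2, 5 genes that act between the calcium signal and gene expression in root symbiosis, were examined for chromatin immunoprecipitation peaks of the transcriptional regulators LSH1 and NIN. A locus was the gene with 30 kb to each side, and for DELLA2 a fixed window of 70000 bp on chromosome 8. These windows held 187 of the 213590 peaks in the 7 deposited lists. The genes were chosen by name and not by their peaks, but with earlier results of these data known. NSP1, NSP2 and DELLA2 are LOC11434050, LOC11406790 and LOC120577405 in the gene table, and CCaMK and IPD3 carry their own symbols there.

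In legume roots, microbial signals set off calcium oscillations in and around the nucleus. CCaMK, a calcium- and calmodulin-dependent protein kinase, decodes them and phosphorylates IPD3 (called CYCLOPS in Lotus japonicus), a DNA-binding transcriptional activator. DELLA proteins, which hold back gibberellin responses, join this complex, and the GRAS proteins NSP1 and NSP2 act with it to switch on symbiosis genes such as NIN. NIN (NODULE INCEPTION) is a transcription factor of the RWP-RK family without which no nodules form. LSH1 (LIGHT SENSITIVE SHORT HYPOCOTYL 1) belongs to the ALOG family of transcriptional regulators.

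The lists came from transiently transformed hairy roots of Medicago truncatula, ecotype jemalong and cultivar Jester, that expressed GFP-LSH1 or GFP-NIN from the Lotus japonicus ubiquitin promoter pLjUBI. All roots were 3 weeks old and had grown under non-symbiotic conditions on modified Fahraeus medium with 0.5 mM NH4NO3, and the labels name no mutation. The lists describe overexpressed, tagged proteins in roots without nodules, and peak positions alone offer no marker by which the tissue could be checked. There were 4 LSH1 and 3 NIN lists, each called from 1 immunoprecipitation and 1 control library. The controls carry the same construct label as the immunoprecipitations, while the protocol also names pLjUBI:NLS-GFP roots as a control; which material they came from was not settled. Whether the replicates came from separate cultures is not labelled, so every p-value refers to the spread between lists, which could be technical.

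The LSH1 lists held 25127, 21902, 18750 and 20787 peaks in replicates 1 to 4, and the NIN lists 14021, 28825 and 84178 in replicates 1 to 3. NIN replicate 3 stood apart, since it covered 52.7 Mb against 4.04 and 9.13 Mb in the other NIN lists and 6.77 to 10.3 Mb in the LSH1 lists. The files give no height, fold or q-value. The place of a peak is 100 times its running number in the list over the list's length, in percent, so that low values come first, but the measure behind the order is not named. Read depth behind the lists is unknown, and a list's length is no measure of binding. Distances are from the nearest gene end, written as below (lower coordinates) or above (higher coordinates), because strand was not used.

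LSH1 peaks lay at or beside 4 of the 5 genes in at least 2 lists, with NSP1 and DELLA2 ahead of CCaMK and IPD3 in place. Overlapping LSH1 peaks of different lists were merged into regions. A gene was called where the midpoint of the best-placed peak of such a region, seen in at least 2 lists, fell between 2000 bp outside and 500 bp inside either gene end. CCaMK, IPD3, NSP1 and DELLA2 were called for LSH1, and NSP2 was not. Of all 31728 coding genes, 23.6% were called this way. CCaMK, NSP1 and DELLA2 were also called from regions present in all 4 LSH1 lists, a state shared by 8.07% of coding genes. In each of these 3 an all-list LSH1 region also overlapped the gene, as in 6.75% of coding genes, and all 4 LSH1 lists had a peak within 2 kb, as at 14.9%. An all-list LSH1 region within 30 kb, which these 3 genes had and IPD3 and NSP2 lacked, was found at 48.2% of coding genes. For NIN none of the 5 genes was called, against 11.8% of coding genes in at least 2 lists and 1.49% in all 3 lists. A count of 0 among 5 genes is near those backgrounds.

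**Figure D1:**
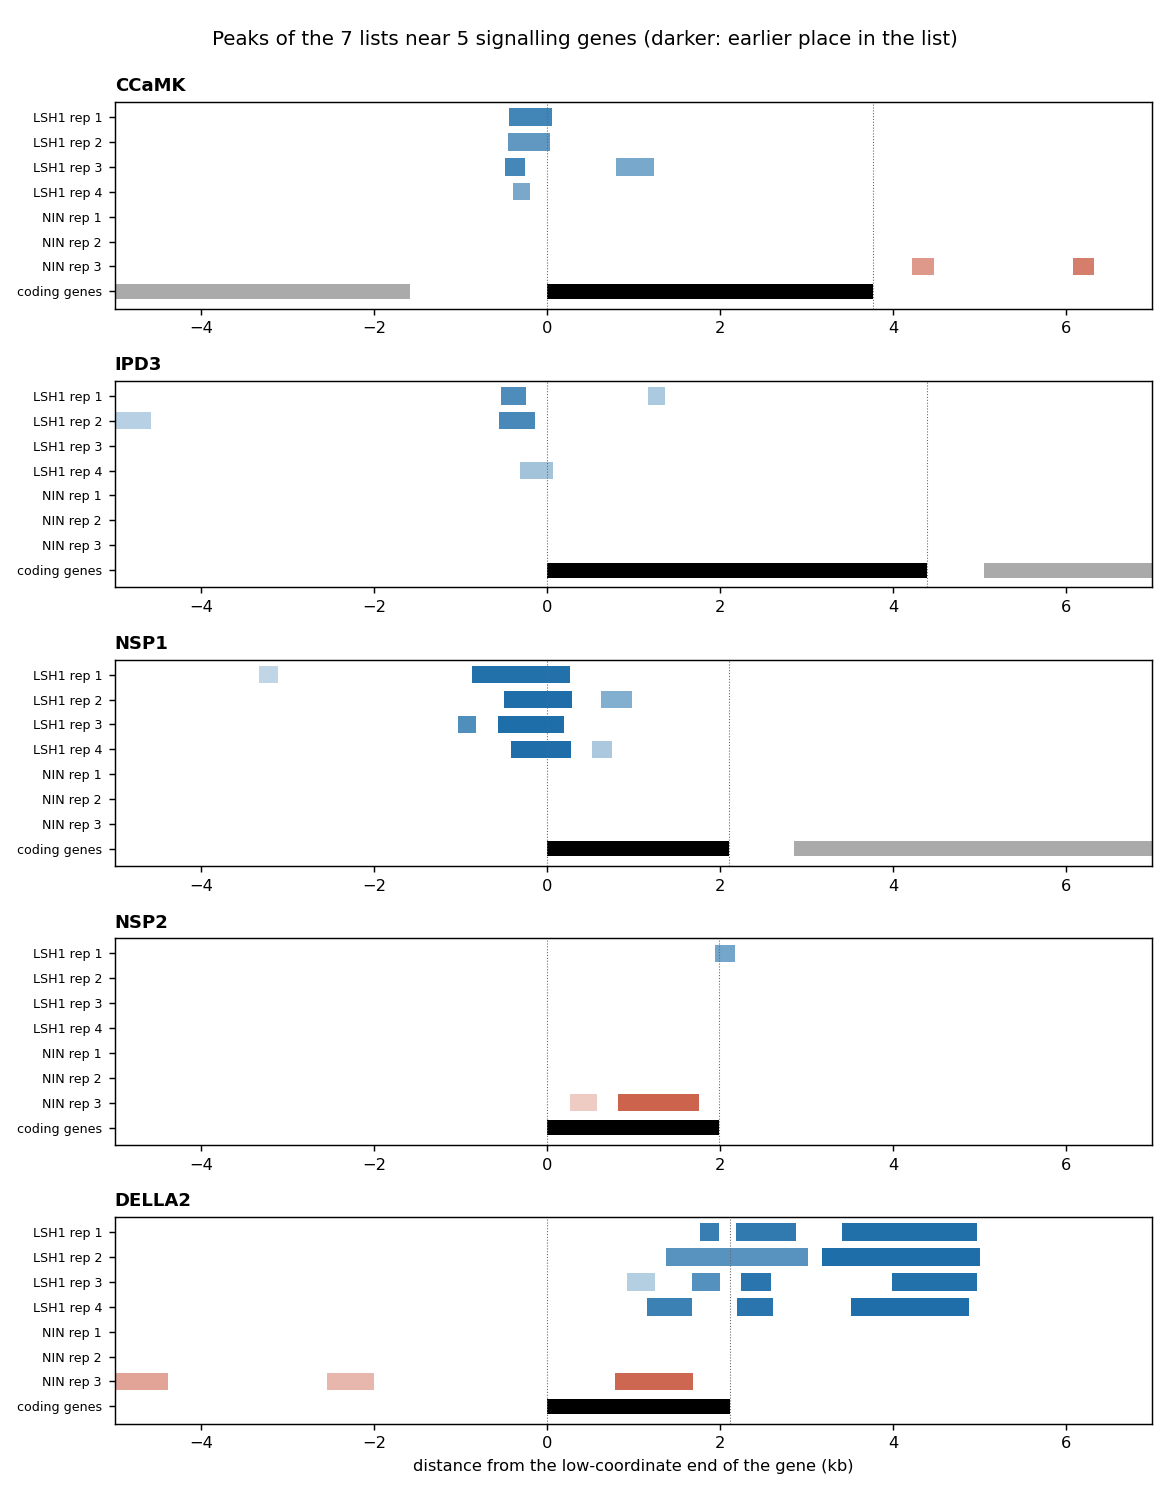
Peaks of the 7 lists near each of the 5 genes, as bars against distance in kb from the lower gene end, with 1 row per list (LSH1 blue, NIN red, darker for an earlier place) and a row of coding genes (the named gene black, others grey). LSH1 bars line up at or beside CCaMK, NSP1 and DELLA2 in all 4 lists and beside IPD3 in 3, while NIN bars within 2 kb come from replicate 3 alone.

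CCaMK, the kinase itself, had 1 LSH1 region at its lower end (chr8:16667419-16667955, 537 bp). The peak had a place of 22.8, 40.3, 24.7 and 54.9% in LSH1 replicates 1 to 4. Replicates 1 and 3 thus held it earlier than replicates 2 and 4, and 74.8% of the LSH1 regions found in all lists had a better mean place than its 35.7%. The stretch covered in every list was 135 bp long (16667512 to 16667646) and ended 254 bp below the gene. The same region also called the neighbouring gene LOC11408376, 1585 bp below CCaMK, so the data do not assign it to either gene. A second LSH1 peak, inside CCaMK, was in replicate 3 alone at a place of 54.2%.

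IPD3, the kinase's phosphorylation target, had a similar region at its lower end (chr5:11125910-11126534, 625 bp), but in 3 of 4 LSH1 lists. Its place was 29.4, 26.1 and 79.3% in LSH1 replicates 1, 2 and 4. Replicate 3 had no peak anywhere within 30 kb of IPD3, and its nearest peak lay 45499 bp away. The 3 peaks shared only 72 bp (11126148 to 11126219), which ended 244 bp below the gene. One further peak inside IPD3, in LSH1 replicate 1, was late in the list at 84.8%.

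NSP1, a GRAS transcription factor of nodulation and mycorrhizal signalling, carried an LSH1 region across its lower end (chr8:7300857-7302174, 1318 bp) that stood early in every list. Its place was 4.55, 2.05, 1.55 and 1.84% in LSH1 replicates 1 to 4, which are peak numbers 1143, 448, 291 and 383 of those lists. Every LSH1 list held it in its first 5%, and replicate 1 was the latest. Only 0.728% of coding genes had an all-list LSH1 region at a gene end with as good a mean place, and among the 2561 genes with such a region 9.02% did. The stretch common to the 4 lists was 610 bp (7301468 to 7302077), of which 414 bp lay below the gene and 196 bp inside it. A second LSH1 region inside NSP1 (7302403 to 7302868) was present in replicates 2 and 4, at 60.6 and 84.3%.

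NSP2, the GRAS partner of NSP1, differed from the other 4 genes in having no LSH1 region in at least 2 lists within 2 kb. The only LSH1 peak on the gene was that of replicate 1 (chr3:36220402-36220642), at a place of 52.4%. The nearest LSH1 region seen in at least 2 lists (36226597 to 36227021) lay 6143 bp above the gene, in replicates 2 and 3 at 64.1 and 44.1%. It overlapped a peak of NIN replicate 1. Within 30 kb, 12 LSH1 regions lay around NSP2, 6 of them in exactly 2 lists and none in more.

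DELLA2, a repressor of gibberellin responses, had the densest LSH1 locus. The LSH1 lists held 12, 13, 14 and 11 peaks within 30 kb of the gene, where the median coding gene had 4, 3, 3 and 3. As many peaks were found at 4.47, 1.43, 0.315 and 4.87% of coding genes in LSH1 replicates 1 to 4. In the fixed window the 4 lists formed 26 regions, of which 9 were in at least 2 lists and 4 in all lists. At least 4 all-list LSH1 regions within 30 kb were found at 3.51% of coding genes.

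The best-placed DELLA2 region lay beside the gene and not on it (chr8:37954830-37956660, 1831 bp, 1064 bp above). Its place was 3.59, 1.75, 3.96 and 2.05% in LSH1 replicates 1 to 4. All 4 lists held it in their first 5%. Its mean place of 2.84% was close to the 2.50% of the NSP1 region, and the order of the 2 depended on the list, with DELLA2 earlier in replicates 1 and 2. Without replicate 3 the means were 2.46% for DELLA2 and 2.81% for NSP1. The share of coding genes with as good a mean place in an all-list region at a gene end was 0.848%, but the DELLA2 region counts there through replicate 2 alone, whose peak midpoint lay 1980 bp above the gene. The midpoints in replicates 1, 3 and 4 lay 2078, 2366 and 2084 bp above it, beyond the limit of 2000 bp. The 4 lists shared 897 bp of it, from 37955637 to 37956533, which began 1871 bp above the gene. The region on the gene (37952578 to 37954670, 2093 bp) was covered in pieces, with 8 peaks in the 4 lists. Its best peak had a place of 12.5, 35.7, 8.17 and 8.50%. Of that region 56.8% lay inside the gene, but the 347 bp common to all lists began 133 bp above it.

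Farther out, 2 more all-list LSH1 regions lay above DELLA2, at 11356 bp (37965122 to 37965538) and 21590 bp (37975356 to 37976647). The first had places of 48.0, 24.0, 45.6 and 53.0%, and the second 18.5, 5.64, 56.3 and 16.0%. The second overlapped LOC120577638, a gene of its own, which was also called for LSH1. Regions in 3 of 4 lists lay at 6719, 8423 and 28713 bp above DELLA2, with mean places of 47.0, 35.5 and 47.5%.

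**Figure D2:**
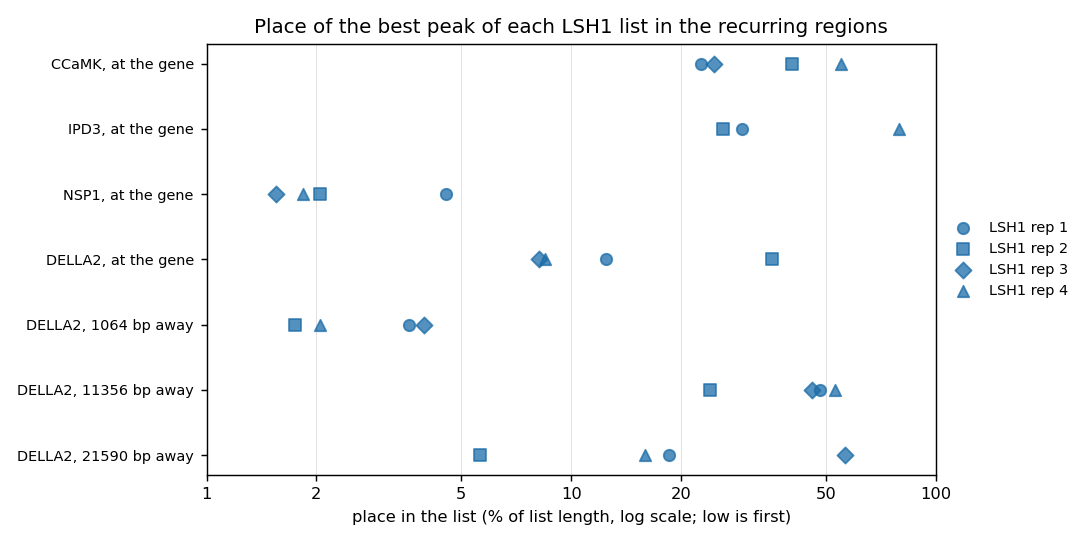
Place in the list (percent, log axis, low first) of the best-placed peak per LSH1 list in each key region, with 1 symbol per replicate. The NSP1 region and the DELLA2 region 1064 bp from the gene lie below 5% in all 4 lists, while the CCaMK and IPD3 regions lie between 22.8 and 79.3%.

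NIN peaks close to the genes came from replicate 3 alone. Within 2 kb there was no peak of NIN replicates 1 or 2 at any of the 5 genes. Of all coding genes 39.5% had one, and with only 5 genes the absence was not tested against that share. NIN replicate 3 had peaks within 2 kb of CCaMK, NSP2 and DELLA2, which is the case for 66.1% of coding genes. Its peak 442 bp above CCaMK had a place of 53.7%. On NSP2 it had a peak of 941 bp (36219285 to 36220225) at 10.8% and another at 92.8%. On DELLA2 its peak (37952437 to 37953344) at 14.1% overlapped the LSH1 region on the gene by 767 bp. None of these was seen in a second NIN list, and IPD3 and NSP1 had no NIN peak within 2 kb in any list.

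The share of the gene and 2 kb to each side that lay under peaks put numbers to this. At NSP1 the LSH1 lists covered 18.7, 18.9, 15.9 and 15.1% in replicates 1 to 4, and the 3 NIN lists 0%. At DELLA2 the LSH1 lists covered 26.5, 42.2, 18.5 and 25.1% and the NIN lists 0, 0 and 14.9%. The groups did not overlap at either gene, with every LSH1 list above every NIN list, as at 8.14% of coding genes. The LSH1 mean was 17.1% ± 1.94 (SD, n = 4) at NSP1, and 2.66% of coding genes reached it. It was 28.1% ± 10.1 (SD, n = 4) at DELLA2, reached by 0.634% of coding genes. A two-sided exact permutation test over the 35 splits of the 7 lists gave p = 0.0286 at both genes, the smallest value this design allows. After Benjamini-Hochberg adjustment over 31728 coding genes, both exact p-values were 0.302 and missed the threshold of 0.05. No coding gene passed it, and 9.46% had an unadjusted p under 0.05.

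The other 3 genes did not separate the proteins in this way. Around CCaMK the LSH1 lists covered 6.43, 6.23, 8.58 and 2.44% and the NIN lists 0, 0 and 3.36%. Around IPD3 the LSH1 lists covered 5.83, 4.89, 0 and 4.61% and no NIN list covered any base. The groups overlapped at CCaMK through NIN replicate 3, and at IPD3 they met at 0 through LSH1 replicate 3. Around NSP2 only LSH1 replicate 1, with 4.02%, and NIN replicate 3, with 20.9%, covered any base. The exact permutation p-values were 0.0857, 0.143 and 0.714 for CCaMK, IPD3 and NSP2, and 0.468, 0.468 and 0.951 after adjustment.

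**Figure D3:**
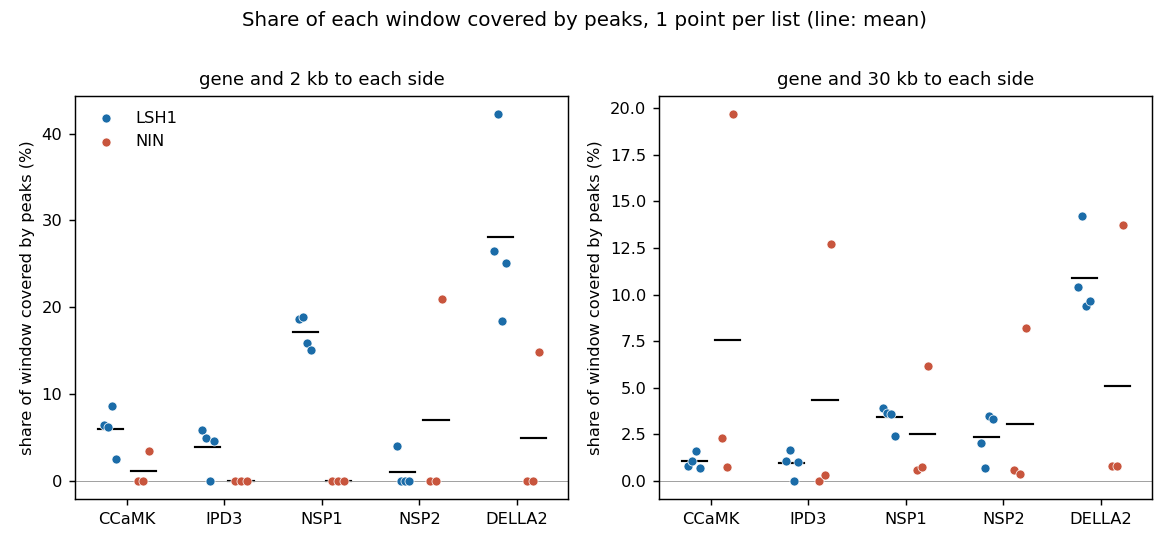
Share of each locus covered by peaks (percent), with 1 point per list for LSH1 (4 lists) and NIN (3 lists) and a line at the mean, for the gene with 2 kb and with 30 kb to each side. At 2 kb all LSH1 points lie above all NIN points at NSP1 and DELLA2, while at 30 kb NIN replicate 3 overlaps or exceeds the LSH1 points at every gene.

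Over the gene with 30 kb to each side, the LSH1 and NIN lists overlapped at all 5 genes, and 4.13% of coding genes had every LSH1 list above every NIN list. The NIN mean was the higher at CCaMK, IPD3 and NSP2, as at 70% of coding genes. At DELLA2 the LSH1 lists covered 10.4, 14.2, 9.38 and 9.63% and the NIN lists 0.762, 0.808 and 13.8%. Replicate 3 of NIN lay among the LSH1 lists there, and the other NIN lists far below them. The LSH1 mean of 10.9% ± 2.25 (SD, n = 4) was reached at 0.419% of coding genes. The difference of 5.81 percentage points (LSH1 minus NIN) had an exact permutation p of 0.2, and 0.435 adjusted. At NSP1 the LSH1 lists covered 3.91, 3.66, 3.59 and 2.42% and the NIN lists 0.589, 0.728 and 6.17%, a difference of 0.902 (exact p = 0.571, adjusted 0.843). That difference was -0.0507, 0.0185 and 2.74 without NIN replicates 1, 2 and 3 in turn.

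At CCaMK the LSH1 lists covered 0.784, 1.07, 1.61 and 0.655% within 30 kb and the NIN lists 2.29, 0.745 and 19.7%. NIN had the higher mean, with a difference (LSH1 minus NIN) of -6.54 percentage points (exact p = 0.114, adjusted 0.322), and of -0.486 without NIN replicate 3. At IPD3 the LSH1 lists covered 1.08, 1.65, 0 and 0.980% and the NIN lists 0, 0.284 and 12.7%. At NSP2 they covered 2.02, 0.681, 3.46 and 3.31% for LSH1 and 0.548, 0.332 and 8.21% for NIN. The NIN mean was higher at IPD3 and NSP2 through replicate 3 alone, and without it LSH1 was higher by 0.785 and 1.93 points. With it, the exact p-values were 0.543 and 0.886, and 0.820 and 0.981 adjusted. The long list of NIN replicate 3 moved these values at most genes, since it covered more than each of the other 6 lists around 83.8% of coding genes. The median coding gene had a difference of -1.71 points, and of 0.734 points without NIN replicate 3. No coding gene passed the adjusted threshold with all lists, while 19.7% had an unadjusted p under 0.05.

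**Figure D4:**
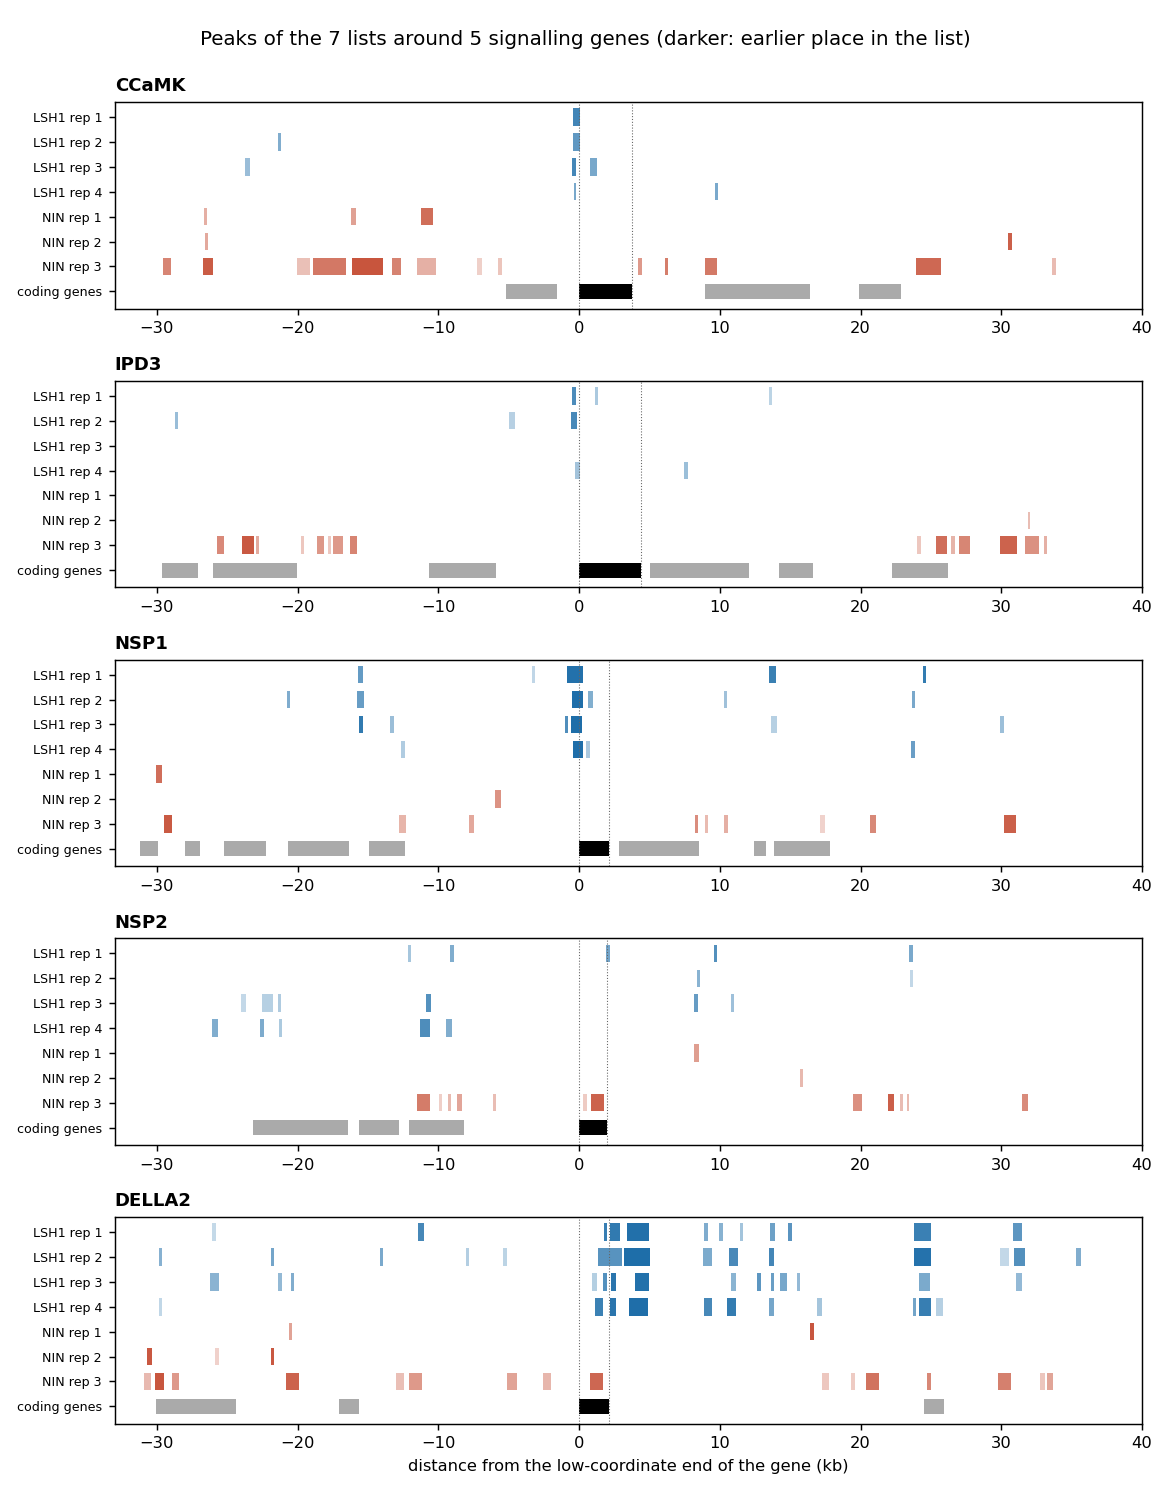
Peaks of the 7 lists over the whole window of each locus, as bars against distance in kb from the lower gene end, with 1 row per list. LSH1 bars are densest above DELLA2, and the row of NIN replicate 3 fills windows in which NIN replicates 1 and 2 together have 1 to 5 bars.

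Mean LSH1 coverage was highest next to the gene at CCaMK, IPD3, NSP1 and DELLA2, but not at NSP2. The mean LSH1 coverage at NSP1 was 17.1% within 2 kb, 0.675% from 2 to 10 kb and 2.39% from 10 to 30 kb. At CCaMK these shares were 5.92, 0.356 and 0.351%, and at IPD3 3.83, 1.38 and 0.138%. These 3 genes, and DELLA2, were called by LSH1 regions at a gene end, so high coverage there follows in part from the call. Over all coding genes, called or not, the shares were nearly flat at 2.63, 2.40 and 2.45%. The LSH1 means within 2 kb of CCaMK and IPD3 were reached by 14.4 and 21.4% of coding genes. DELLA2 was also highest next to the gene, with 28.1, 11.6 and 8.03%, and lay above the mean of all coding genes at every distance. NSP2 had 1.01, 2.50 and 2.52%, below that mean at the gene and near it farther out. Its LSH1 mean within 2 kb was nonetheless reached by only 49.5% of coding genes, and the median coding gene had 0% there in every LSH1 list. No test was made between distances.

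NIN showed another order at CCaMK, with a mean coverage of 1.12% within 2 kb, 3.58% from 2 to 10 kb and 10.4% from 10 to 30 kb. At IPD3 it was 0, 0 and 6.97%, and at DELLA2 4.95, 2.68 and 6.10%. NSP2 ran the other way, with 6.98, 2.88 and 2.50%, and NSP1 had its highest share in the middle span, with 0, 3.30 and 2.55%. Over all coding genes the NIN means were 3.68, 4.64 and 4.59%. Most of the NIN coverage in the outer span came from replicate 3, whose share there was 26.4% at CCaMK and 20.4% at IPD3.

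**Figure D5:**
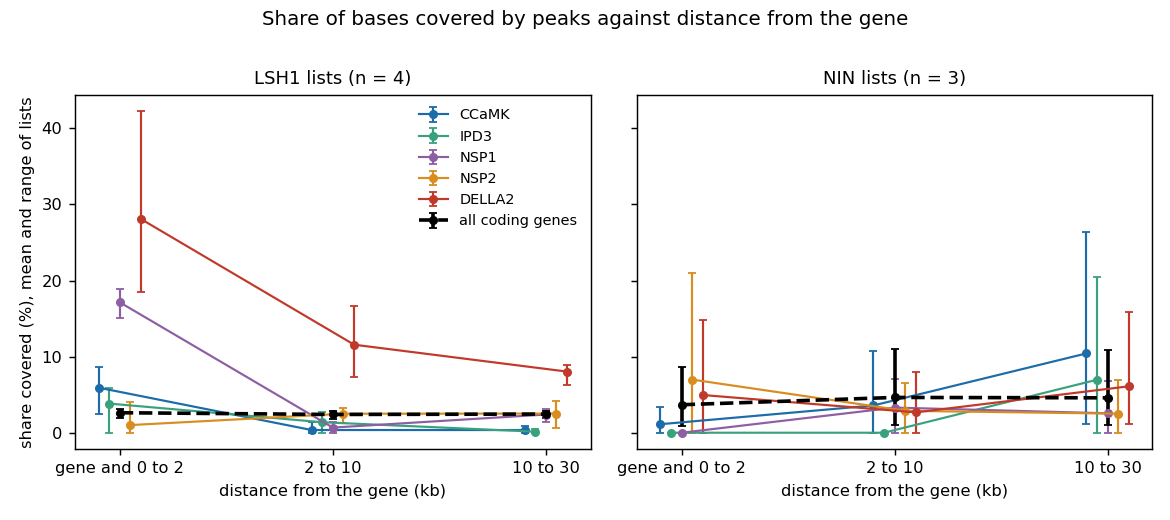
Mean share covered by peaks (percent), with the range over lists, in 3 spans of distance from the gene for each of the 5 genes and for all coding genes, for LSH1 (4 lists) and NIN (3 lists). LSH1 coverage falls from the nearest span at CCaMK, IPD3, NSP1 and DELLA2, while for NIN the outermost span is the highest at CCaMK, IPD3 and DELLA2.

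The most repeated NIN signal of the 5 loci lay far below CCaMK. The region chr8:16641185-16641889, 26011 bp from the gene, was the only one in all 3 NIN lists, with places of 70.9, 66.2 and 5.00% in replicates 1 to 3. Its nearest coding gene was LOC11406186, 4223 bp away. An all-list NIN region within 30 kb was found at 21.2% of coding genes. At 13954 bp below CCaMK, a region in NIN replicates 1 and 3 (16651675 to 16653946) held peak number 166 of NIN replicate 3, at a place of 0.197%, and in replicate 1 its place was 60.4%. At 10171 bp another region (16656390 to 16657729) was in the same lists, at 19.4% in replicate 1 and 71.8% in replicate 3. The lists thus shared positions below CCaMK but ordered them differently.

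When every list was cut to its first 5000 peaks, the NIN lists covered 1.31, 0.453 and 4.56% of the CCaMK locus and the LSH1 lists 0, 0, 0.358 and 0%. Every NIN list then lay above every LSH1 list, as at 7.62% of coding genes. The exact permutation p was 0.0286, and 0.141 after adjustment, while 20.3% of coding genes had an unadjusted p under 0.05. The NIN peaks behind this were not at 1 position, since that of replicate 2 lay 26669 bp above the gene and those of replicates 1 and 3 below it. With the same limit DELLA2 kept 5.95, 4.91, 2.15 and 6.00% under LSH1 peaks and 0.398, 0.370 and 0.828% under NIN peaks. NSP1 kept 3.03, 1.27, 1.70 and 1.12% under LSH1 peaks and 0.589, 0 and 0.889% under NIN peaks. All LSH1 lists were higher than all NIN lists at both genes, as at 21.4% of coding genes, with an exact permutation p of 0.0571, and 0.199 adjusted, at each.

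The number of peaks in the 5 windows was 26, 27, 29 and 24 in LSH1 replicates 1 to 4, which is 0.103, 0.123, 0.155 and 0.115% of these lists. The NIN lists had 7, 8 and 66 peaks there, or 0.0499, 0.0278 and 0.0784%. As a share of its list, every LSH1 list was thus above every NIN list, but DELLA2 gave 51 of the 106 LSH1 peaks. These shares depend on list length, and how often windows around other genes give the same order was not computed. In the other 4 windows the groups overlapped, at 0.0557, 0.0594, 0.0800 and 0.0625% for LSH1 and 0.0357, 0.0173 and 0.0594% for NIN. The LSH1 peaks formed 61 regions, of which 36.1% were in at least 2 lists, against 31.0% of LSH1 regions in the genome. The NIN regions that reached into the windows numbered 74, of which 9.46% were in at least 2 lists, against 16.2% in the genome. The one at the lower edge of the NSP1 window was in 2 lists only through a peak of NIN replicate 3 at 30006 bp, beyond that edge. NIN replicate 3 alone accounted for 81.1% of these NIN regions, against 64.0% in the genome.

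LSH1 and NIN regions overlapped in part. Of the LSH1 regions in the 5 windows 27.9% overlapped a NIN region, and 23.0% of the NIN regions there overlapped one of LSH1, against 21.7 and 10.8% in the genome. DELLA2 held 10 of the 17 overlapping LSH1 regions. Near NSP2 a region of LSH1 replicates 3 and 4 (36207160 to 36207918), 10547 bp below the gene, shared 733 bp with a peak of NIN replicate 3. The regions at CCaMK, IPD3 and NSP1 and the best-placed one at DELLA2 overlapped no NIN peak.

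The windows also held 23 other coding genes, of which 8 (34.8%, against 23.6% of all coding genes) were called for LSH1 and 3 (13.0%, against 11.8%) for NIN. Of these 8, LOC11408376 was called by the region at CCaMK itself. In the NSP1 window 4 of 8 neighbours were called for LSH1, in pairs of adjacent genes that shared a region. The region in LSH1 replicates 1 to 3 (7286125 to 7286572, mean place 33.2%) called LOC11420698 and LOC11434049, 350 bp from the latter. That in LSH1 replicates 1 and 3 (7315388 to 7315909) called LOC11418919 and LOC11421249. For NIN, the region at the lower edge of this window (7271627 to 7272247) called both LOC25500551 and LOC11430426. The shares of called neighbours thus count some regions more than once. No neighbour in the IPD3 window was called for either protein. The window edge fell between NIN peaks, with one of replicate 3 at 29855 bp from CCaMK inside it and another of that list at 30006 bp from NSP1 outside it.

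Other genes of the pathway were called at shares near the background. A list of 60 names from symbiosis signalling matched 22 genes of the table, 17 of them besides the 5 described here. LSH1 regions in at least 2 lists called 5 of these 17 (29.4%, against 23.6% of coding genes), and NIN regions called 3 (17.6%, against 11.8%). STR2, an ABC transporter needed for mycorrhizal arbuscules, and D27, an isomerase of strigolactone synthesis, were called for LSH1 in all 4 lists. STR2 had LSH1 places of 18.9, 8.06, 11.6 and 3.90%, and D27 of 30.0, 90.9, 91.6 and 98.8%, near the end of 3 lists. D27 was no longer called with an overlap of 50% or with the first 50% of each list. NOOT1 and NOOT2, which keep nodule identity, and the early nodulin gene ENOD20 were called for LSH1 in fewer lists. The match of ENOD20 to LOC11444178, by a synonym, is in doubt. NIN calls were RAM2, a glycerol-3-phosphate acyltransferase of mycorrhizal roots, VPY and ENOD11, each with peak midpoints of 2 NIN lists at the gene. ENOD20 had peak midpoints of all 3 NIN lists at its gene ends, at 35.1, 21.2 and 51.8%, but was not called for NIN. The merged region at RAM2 held peaks of all 3 lists, with places of 35.0% in NIN replicate 1 and 0.738% in replicate 3 at the gene. DELLA1, the other DELLA gene matched, had LSH1 peaks in 2 lists at places of 3.84 and 61.6% and was not called.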

How the data were processed

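Upstream tools were Bowtie2, Picard, MACS2 and ChIPseeker, per the submitters' processing notes. The authors deposited 7 peak lists, called per replicate and not on pooled samples, with a q cutoff of 0.05 in their names. Each gives sequence name, start, end and running number. Tool versions and the genome build were not stated in the sources used here. Gene positions and symbols were read from RefSeq (MtrunA17r5.0-ANR, 39590 genes). To check that both coordinate systems match, gene ends were moved by 1000, 5000 or 20000 bp. The check used 16700 of the 53966 LSH1 regions in the genome. Of these 16700, 28.1% had a gene end within 500 bp unmoved, and 16.8 to 18.2% when moved. Since the build is not named, no gene coordinates are given, while peak and region positions follow the lists and count from 1. Exons, introns and untranslated regions are not stated, and no sequence was used.

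Coverage, regions and exact permutation tests were computed with Python 3.11.15, numpy 2.4.6, pandas 2.3.3 and scipy 1.17.1, after tests on simulated data. Peaks of the same protein were merged into a region where they shared 1 bp or more. Named genes were the 5 genes, called pathway genes, the coding gene nearest to each all-list region, and for each of the 5 the 3 genes over 60 kb away with the most similar places. Members and lists were chosen with earlier results of these data known. Alternatives were shorter lists, lists left out, no peaks over 2000 bp, other windows, peak numbers in place of coverage, an overlap of 50%, regions in all lists, and a replicate block.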

Additional observations from a re-analysis of the deposited data

Results flagged for a closer look

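In 14 groups of 4 LSH1 values (peak numbers, coverage and best places at the loci), 2 held a list far from the other 3 by Dixon's test at the 95% level, which flags about 1 group in 20 by chance. The best place at NSP1 was 4.55% in LSH1 replicate 1, against 1.55 to 2.05% in the other 3 lists, so the region stood early in all 4. The best place at NSP2 was 64.1% in LSH1 replicate 2, against 29.9 to 33.2% in the others, and the 4 peaks behind these values were not all at 1 position. The NIN lists, being 3, were not examined this way.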

How the results depend on the processing

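The genes called for LSH1 numbered 4 under every alternative run except regions in all lists, which gave 3 (not IPD3) where 8.07% of coding genes were called, and the first 5000 peaks of each list, which gave 2 (NSP1 and DELLA2) where 7.92% were. The share of coding genes called under the others ran from 14.1% with the first 50% of each list to 33.9% with the whole gene and 3000 bp. The number called for NIN was 0 under each of these alternatives.

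The difference in coverage (LSH1 minus NIN, percentage points) changed sign at CCaMK with 2 kb to each side (4.80), at IPD3 with 10 kb (2.22), with 2 kb (3.83) and without NIN replicate 3 (0.785), at NSP1 without NIN replicate 1 (-0.0507) and at NSP2 without NIN replicate 3 (1.93). Leaving out each list in turn gave -9.95 to -0.486 at CCaMK, -5.56 to 0.785 at IPD3, -0.0507 to 2.74 at NSP1, -2.02 to 1.93 at NSP2 and 3.63 to 10.1 at DELLA2. For the median coding gene the difference was -0.834 with 2 kb, -1.64 with 10 kb, -3.10 without NIN replicate 1 and 0.734 without NIN replicate 3. Pathway genes called for LSH1 were 1 with the first 5000 peaks, 3 with the first 50%, 2 with all lists, 7 with the whole gene and 3000 bp, and 4 to 5 with a list left out. Those called for NIN were 1 with the first 5000 peaks (0.794% of coding genes called), 5 with the whole gene and 3000 bp (21.8%), 1 with all lists (1.49%) and 0 to 3 with a list left out, where 0 came without NIN replicate 3 (2.40%). All-list LSH1 regions were 2 with the first 5000 peaks, 3 with the first 50% and 6 to 8 with a list left out. All-list NIN regions were 0 under both shorter lists and 1 to 5 with a list left out, 3 without NIN replicate 1 and 5 without replicate 2. LSH1 peaks in the loci averaged 26.5 per list, 5.25 with the first 5000 peaks and 12.75 with 10 kb, and NIN peaks 27, 3.67 and 6.67.

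With the replicate block, a sign-flip over numbers 1 to 3, the differences were -6.42, -3.42, 1.23, -0.980 and 6.23 at CCaMK, IPD3, NSP1, NSP2 and DELLA2. The smallest exact p it allows is 0.25. Deviations of same-numbered lists correlated with r = 0.133, -0.00386 and 0.166, and those of unlike-numbered lists with r from -0.224 to 0.0673. These values do not settle whether the numbers mark pairs, and the main test did not take them as pairs. A window at the gene start alone and a motif search were not run, since strand and sequence were not used here. Among the first 5000 peaks no list covered any base at NSP2, a difference of 0 (p = 1, exact permutation). The unknown read depth limits every count, and a missing peak does not show that binding is absent.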

Other observations

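Among coding genes over 60 kb away, those whose best places at the gene ends were most like the 5 genes over the 7 lists (Euclidean distance in percentage points, with 100 where a list had no peak) were as follows. LOC25489285, LOC11411627 and LOC11432050 were nearest to NSP1, at distances of 0.929, 1.36 and 1.43. LOC25489828, LOC11429960 and LOC11413842 were nearest to DELLA2, at 3.13, 4.13 and 4.43. The DELLA2 places compared were 12.5, 1.75, 8.17 and 8.50% in LSH1 replicates 1 to 4. That of replicate 2 came from the region 1064 bp above the gene, and the others from the region on it. LOC11443120, LOC11411380 and LOC11421938 were nearest to NSP2, at 2.76, 2.76 and 4.07, where LSH1 replicate 1 and NIN replicate 3 alone had a peak.

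LOC11429097, LOC25491649 and LOC11426024 were nearest to IPD3, at 7.96, 8.48 and 11.3. CCaMK had no gene as close, since LOC11427382 and LOC11442504 both lay at 14.5 and LOC11427799 at 15.0. The 7 lists differ in length, and genes that share a region also share its places.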
